A study of Mus musculus with 12 samples.

Results

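The potassium channel genes of the somatosensory cortex were examined as all gene symbols in the deposited counts that open with Kcn, except Kcnq1ot1, a long noncoding RNA of the Kcnq1 locus. Of 97 such symbols, 86 had at least 10 estimated counts summed over the 12 libraries, among 24452 symbols in all. They cover the pore-forming subunits of voltage-gated, inward rectifier, tandem-pore, calcium-activated and sodium-activated channels together with their auxiliary subunits. The name alone also brought in 3 symbols that encode no channel subunit: Kcnrg, Kcnd3os and Kcnmb4os2. After the low-count filter of the statistical model, 78 of the 86 were tested and 8 were not.

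The libraries came from somatosensory cortex of male C57BL/6 mice at postnatal day 7 (P7), in 4 groups of 3 libraries each. WT mice and p53 KO mice, the offspring of matings between Trp53 heterozygotes, received intraperitoneal ethanol at 2.5 g/kg per injection in repeated injections, or saline, and tissue was taken 8 h afterwards. The p53 KO mice carry a targeted disruption of Trp53 (the tm1Tyj allele) from conception on, and the labels name no other allele or agent. The libraries are named here by the number in their labels: replicates 1, 3 and 13 for WT saline, 4, 5 and 14 for WT ethanol, 7, 8 and 9 for KO saline, and 10, 12 and 18 for KO ethanol. The labels do not say per library that the replicates were different mice, so the p-values measure the spread between these libraries.

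Potassium channels let potassium leave the neuron, which sets the resting potential, ends each action potential and limits the rate of firing. Voltage-gated families open on depolarization, calcium-activated families couple calcium entry to the pause after a spike, and inward rectifiers and tandem-pore leak channels hold the membrane near rest. In the early postnatal cortex the set of potassium channels that a neuron expresses is still changing as it matures, and glia and blood vessels carry their own members.

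The libraries differed in ways that bear on the members. The total estimated count ranged from 719735 in the library labelled KO ethanol replicate 12 to 17066392, with a median of 10586860. Levels of a gene between libraries are given as CPM, counts scaled to library size with TMM factors. A single count was worth 1.67 CPM in KO ethanol replicate 12 and between 0.0566 and 0.514 CPM in the other libraries. KO ethanol replicate 12 and WT saline replicate 3 are the libraries whose names open with L. In the check of the targeted gene, NM_001127233 took 7.01% to 23.1% of the Trp53 count in WT libraries, 65.7% to 70.6% in KO saline libraries, and 70.6%, 7.01% and 48.3% in KO ethanol replicates 10, 12 and 18. The library labelled KO ethanol replicate 12 had 14 Trp53 counts, divided as in 3 of the WT libraries, so this check did not separate it from WT. WT ethanol replicate 4 had 4919 CPM of Ttr, the choroid plexus marker. Slc17a6 (463 CPM against 33.4 to 140) and Tcf7l2 (471 CPM against 1.0 to 29.2), both chosen after their values were seen and both rich in thalamus, were also highest there. In bulk RNA, fewer cells of a type and less RNA per cell cannot be told apart.

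The most abundant members per transcript length were auxiliary subunits. Kcnmb4, the neuronal beta subunit of the large-conductance calcium-activated (BK) channel, had 58.9 ± 24.4 RPKM (mean ± SD, n = 12, as deposited by the authors). It was followed by Kcnip2 at 39.3 ± 14.8 RPKM, Kcnip1 at 30.5 ± 8.12 RPKM and Kcnip4 at 25.2 ± 6.43 RPKM, which encode the calcium-binding partners of Kcnd channels. Adjacent genes in this order differed by less than the larger of their SDs. Kcnmb4 and its antisense gene Kcnmb4os2 overlap at 116473163 to 116473523 on chromosome 10. Reads in that stretch cannot be told apart, since it is not stated whether the counting used strand. Among pore-forming genes, the leak channel Kcnk1 was at 21.0 ± 4.43 RPKM and Kcnd2 at 19.3 ± 9.31 RPKM, a source of the A-type current. Kcnab1 (17.2 ± 6.54 RPKM), a beta subunit of Shaker channels, Kcnj4 (17.2 ± 6.12 RPKM), an inward rectifier, and Kcnk2 (16.6 ± 6.09 RPKM), a leak channel, were also among the 10 highest. The order from Kcnk1 to Kcnk2 was not separated beyond the SD.

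**Figure D1:**
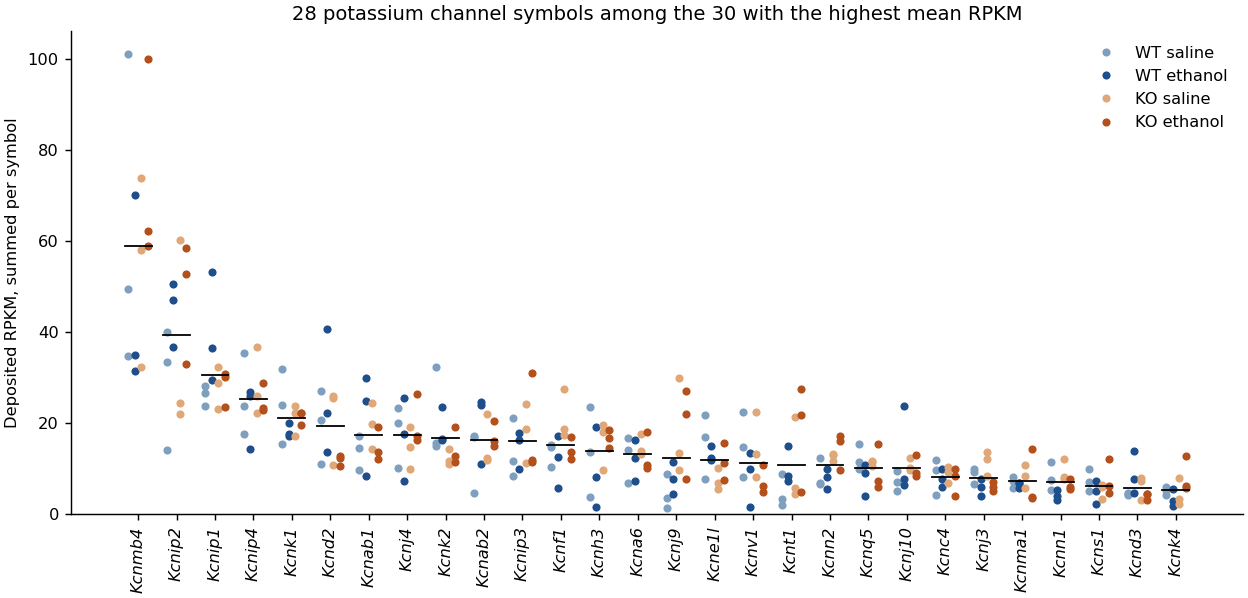
RPKM of 28 potassium channel genes among the 30 with the highest mean, on a linear axis from 0, with 1 point for each of the 12 libraries coloured by group and a line at the mean. Kcnmb4, Kcnip2, Kcnip1 and Kcnip4 stand at the top, and the points of neighbouring genes overlap.

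Summed over members, the Kcnip genes held 19.2% of the potassium channel RPKM on average over the 12 libraries. Inward rectifiers held 11.1%, Kcnmb genes 10.5%, tandem-pore genes 9.39%, and the silent subunits of Kcnf, Kcng, Kcns and Kcnv 7.51%. The Kcnq genes held 6.96% and the Shaker genes 4.28%. When CPM, which are not divided by length, were summed instead, the Kcnq genes held 12.4% and the Kcnip genes 11.6%. The summed RPKM of all members was lowest (445) and highest (670) in WT saline replicates 1 and 3, so libraries of 1 group spanned the whole range.

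Ethanol was compared with saline in WT mice to ask which potassium channel genes changed after ethanol with p53 present. At an adjusted p under 0.30, the level used in the study, 13 potassium channel genes were higher and 4 were lower in WT ethanol than in WT saline libraries. The 17 called members were 21.8% of the 78 tested, against 22.5% of all 14739 symbols called in this comparison, so the share of channel genes was close to the background. Higher calls made up 16.7% of the members against 12.1% of all symbols, and lower calls 5.13% against 10.4%. The split of 13 higher and 4 lower became 23 and 2 without TMM factors. There the median of all symbols was 0.49 and 27.5% of all symbols were called. After a trend with length and GC was removed from each library, the split was 7 and 6, with 13.2% of all symbols called. The shares of all symbols by direction were not counted in these fits, so the splits have no background. The median log2 fold change was 0.15 over the members and 0.06 over all symbols. At an adjusted p under 0.05, 1 member was called (Kcnn3), against 0.0746% of all symbols. Before adjustment, 15 members had p under 0.05 (18.3% of all symbols), 12 of them higher (9.99%). Called or not, 13 of the 78 members lay wholly above WT saline in the WT ethanol libraries and 4 wholly below. Of all symbols, 11.3% and 8.3% did so. Without WT saline replicate 1, or without WT ethanol replicate 4, Kcnn3 was the 1 member still called. Of all symbols, 1.39% and 0.488% were called in these fits, so the loss was not particular to the members. Without the libraries named with L, 40 members and 55.6% of all symbols were called.

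Kcnn3 encodes a small-conductance calcium-activated channel that contributes to the afterhyperpolarization following a spike. It lies on chromosome 3, at 89520164 to 89672494 of mm10. Kcnn3 was at 1.29, 2.57 and 3.71 CPM in the WT saline libraries and at 32.3, 17.9 and 15.1 CPM in the WT ethanol libraries. The lowest WT ethanol library was above the highest WT saline library. The log2 fold change was 3.07 (SE 0.50, adjusted p = 0.0414, edgeR quasi-likelihood test), a fold of 8.39. It was called in all 12 fits that left out a library, and was 2.64 (adjusted p = 0.12) without WT ethanol replicate 4. The sequence around its RefSeq start, from 250 bases before to 50 bases after, is shown because Kcnn3 was the member with the smallest p in both WT ethanol and KO saline libraries against WT saline. It is read 5′ to 3′ from GRCm38.p6 at chr3:89519914-89520213, plus strand, and nothing is in capitals because it holds none of the motifs searched.
Kcnn3: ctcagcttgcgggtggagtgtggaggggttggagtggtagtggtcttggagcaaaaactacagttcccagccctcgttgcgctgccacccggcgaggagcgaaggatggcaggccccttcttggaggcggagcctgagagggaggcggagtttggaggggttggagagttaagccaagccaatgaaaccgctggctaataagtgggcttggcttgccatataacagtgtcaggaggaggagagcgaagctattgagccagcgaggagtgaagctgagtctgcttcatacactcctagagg

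Shaker and Shal channels, which open at low voltage and shape spike onset, held 3 of the calls that were higher in WT ethanol. The tested genes were 6 Shaker and 3 Shal genes, and 12.1% of all symbols were called higher. Kcna1, a Shaker subunit found on axons, was at 15.8, 24.2 and 26.2 CPM in WT saline and 41.4, 56.5 and 33.6 CPM in WT ethanol (log2 fold change 0.99, SE 0.37, adjusted p = 0.215). Kcnd3, a Shal subunit, was at 30.5, 32.4 and 30.9 CPM in WT saline and 105, 61 and 35.5 CPM in WT ethanol (log2 fold change 1.11, SE 0.46, adjusted p = 0.232). The groups did not overlap for either gene, and WT ethanol replicate 4 carried much of the Kcnd3 difference, which was 0.61 (adjusted p = 0.62) without it and 0.20 (adjusted p = 0.80) with the length and GC trend removed. Since strand use is not stated, reads where Kcnd3 and its antisense gene Kcnd3os overlap (105452330 to 105452955 on chromosome 3) cannot be told apart.

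Kcna3, the third of these, is a Shaker channel best known from lymphocytes and microglia, and it rested on few counts. It had 0, 0 and 10 counts in WT saline replicates 1, 3 and 13 and 116, 51 and 6 counts in WT ethanol replicates 4, 5 and 14. In CPM this was 0, 0 and 0.743 against 6.57, 4.73 and 1.05, so the groups did not overlap but the lowest WT ethanol library was close to the highest WT saline library. A count of 0 in WT saline replicate 3 allows up to 1.54 CPM (3 counts, counting error alone). The log2 fold change was 3.43 (SE 0.97, adjusted p = 0.180) and was 2.86 (adjusted p = 0.48) without WT ethanol replicate 4. WT saline replicate 13 holds all of the WT saline counts of Kcna3, so without it that group is at 0 and the fitted fold, there and in KO saline and the interaction, has no stable size. It lies on chromosome 3 at 107036162 to 107038129, and the start window at chr3:107035912-107036211, plus strand, is shown since Kcna3 ranked next to Kcnn3 and differs from it in base composition, with 75% G or C against 57.7%.
Kcna3: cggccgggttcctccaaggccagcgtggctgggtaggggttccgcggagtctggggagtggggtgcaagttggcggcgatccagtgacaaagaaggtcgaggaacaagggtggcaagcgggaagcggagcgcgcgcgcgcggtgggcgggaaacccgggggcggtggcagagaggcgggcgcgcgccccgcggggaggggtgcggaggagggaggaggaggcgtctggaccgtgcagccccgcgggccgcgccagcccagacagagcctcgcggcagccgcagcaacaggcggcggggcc

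Of the 8 ether-a-go-go (Kcnh) genes tested, 3 were called higher in WT ethanol and none lower, against 12.1% and 10.4% of all symbols. Kcnh2, which encodes the channel known as hERG, was at 1.1, 7.2 and 9.36 CPM in WT saline and 54.4, 12.7 and 12.8 CPM in WT ethanol (log2 fold change 2.18, SE 0.83, adjusted p = 0.216). WT ethanol replicate 4 stood far above the other libraries, and without it the log2 fold change was 1.09 (adjusted p = 0.61). Kcnh8 was at 1.29, 0.514 and 0.891 CPM against 6.28, 2.59 and 1.41 CPM, with a log2 fold change of 1.87 (SE 0.67, adjusted p = 0.208), and the groups came close without overlapping. For Kcnh6 the groups overlapped, at 0, 1.03 and 0.223 CPM against 4.36, 1.3 and 0.176 CPM (log2 fold change 2.86, SE 1.12, adjusted p = 0.220). Without WT ethanol replicate 4, the log2 fold change was 1.06 for Kcnh8 (adjusted p = 0.55) and 1.53 for Kcnh6 (adjusted p = 0.60).

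Other voltage-gated and inward rectifier genes moved by smaller steps. Kcnc1, a delayed rectifier of fast-firing neurons, was at 11.9, 37.5 and 16.3 CPM in WT saline and 54.9, 34.3 and 31.4 CPM in WT ethanol (log2 fold change 0.91, SE 0.44, adjusted p = 0.288). WT saline replicate 3 lay inside the range of the WT ethanol libraries. With the length and GC trend removed, the log2 fold change of Kcnc1 was -0.020. Kcnj6, a G-protein-gated inward rectifier, was at 2.94, 3.6 and 4.01 CPM in WT saline and 11.3, 6.39 and 5.8 CPM in WT ethanol (log2 fold change 1.16, SE 0.50, adjusted p = 0.244). It was the 1 inward rectifier of 13 tested that was called, against 22.5% of all symbols. Kcng1, a silent subunit that modifies delayed rectifiers, was at 0.367, 4.11 and 3.57 CPM against 4.7, 11.8 and 7.03 CPM (log2 fold change 1.59, SE 0.71, adjusted p = 0.255), with no overlap. The calls of Kcnc1, Kcnj6 and Kcng1 were lost without WT saline replicate 1 (adjusted p from 0.50 to 0.59) and without WT ethanol replicate 4.

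Kcne2 encodes a small auxiliary subunit that is rich in choroid plexus. It was at 0.735, 0.514 and 0.594 CPM in WT saline and 11.9, 1.39 and 1.76 CPM in WT ethanol (log2 fold change 3.01, SE 1.15, adjusted p = 0.216). WT ethanol replicate 4 was the high library, and without it the log2 fold change was 1.27 (adjusted p = 0.66). The 4 choroid plexus markers (Ttr, Folr1, Kl and Clic6) summed to 3.60 to 119 CPM in the WT saline and 22.1 to 4999 CPM in the WT ethanol libraries. Their sum was 27.1 to 2252 CPM under saline and 0 to 2209 CPM under ethanol in KO mice, with all 4 at 0 in KO ethanol replicate 12. Kcnj13, another choroid plexus channel and one chosen after its values were seen, was at 11.2 CPM in WT ethanol replicate 4 and at 0.371 and 0.703 CPM in replicates 5 and 14, but also at 11.9 CPM in WT saline replicate 1. The part of the choroid plexus RNA in the Kcne2 difference was not tested.

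Of the 4 members that were lower in WT ethanol, Kcns3 and Kcnu1 did not overlap between groups. Kcns3, a silent subunit of the same kind as Kcng1, was at 11.9, 8.23 and 9.73 CPM in WT saline and 0.906, 1.2 and 6.15 CPM in WT ethanol (log2 fold change -1.94, SE 0.64, adjusted p = 0.203). Kcnu1, known as the pore of a sperm potassium channel, was at 28.3, 14.9 and 16.6 CPM against 3.45, 9.17 and 8.78 CPM (log2 fold change -1.50, SE 0.52, adjusted p = 0.208). The log2 fold changes were -1.50 (Kcns3) and -1.17 (Kcnu1) without WT ethanol replicate 4, and the calls were lost (adjusted p = 0.52 for both). They were lost too without WT saline replicate 1, with adjusted p values of 0.39 and 0.45.

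The other lower calls overlapped between the groups. Kcnn1, a small-conductance calcium-activated channel like Kcnn3, was at 20, 54.5 and 31.6 CPM in WT saline and 15.9, 23.3 and 18.6 CPM in WT ethanol (log2 fold change -0.86, SE 0.39, adjusted p = 0.258). Kcnk1 was at 80.5, 41.1 and 101 CPM against 41.7, 47 and 49.7 CPM (log2 fold change -0.69, SE 0.35, adjusted p = 0.297). WT saline replicate 1 of Kcnn1 and replicate 3 of Kcnk1 lay at the level of the WT ethanol libraries. The fitted change of Kcnn1 was thus opposite in sign to that of Kcnn3. The start window of one Kcnn1 transcript, at chr8:70856959-70857258 on the minus strand of GRCm38.p6, is shown because it holds a match to the p53 half-site, the 10-base unit that p53 binds in pairs, which is in capitals.
Kcnn1: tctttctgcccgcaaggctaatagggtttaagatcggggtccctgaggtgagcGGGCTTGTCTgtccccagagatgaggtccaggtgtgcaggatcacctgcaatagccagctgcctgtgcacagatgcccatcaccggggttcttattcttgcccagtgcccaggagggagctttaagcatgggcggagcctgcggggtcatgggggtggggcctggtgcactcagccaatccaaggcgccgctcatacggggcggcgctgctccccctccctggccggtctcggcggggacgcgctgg

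The match to the p53 half-site was counted on both strands in 88 start windows of 63 members in the RefSeq promoter table, and was found in 4 of them (4.55%), those of Kcnab1, Kcnab2, Kcnip4 and Kcnn1. Kcnab2 is named here only for this match. Of all 32851 windows in the table, 8.36% held one. TGACGTCA, the cyclic AMP response element, was in 0 member windows against 1.79% of all windows, and TATAAA was in 5.68% against 13.6%. The median G and C content of the windows was 59% for the members and 52.7% for all windows. A match describes letters in the window and not a bound site.

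**Figure D2:**
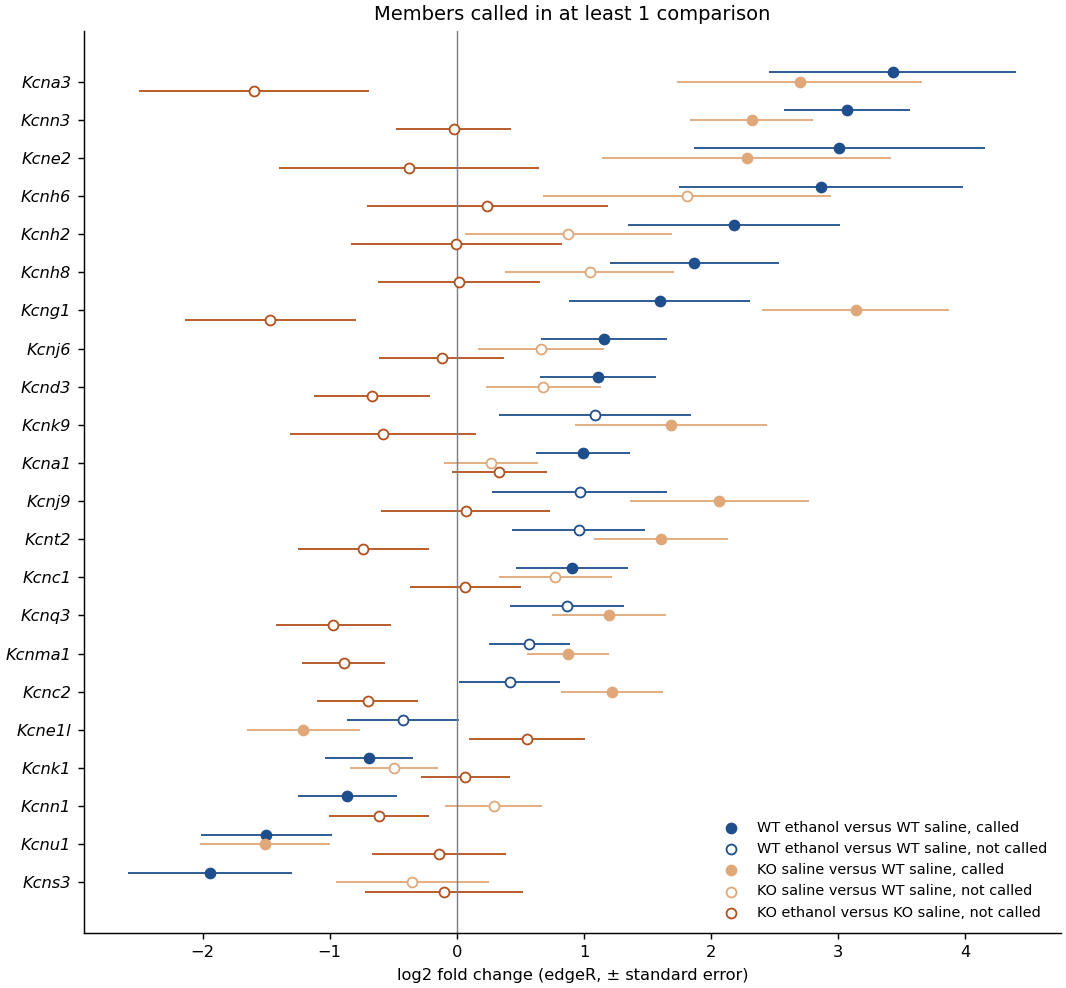
Log2 fold change with SE of 22 potassium channel genes called in at least 1 of the comparisons WT ethanol versus WT saline, KO saline versus WT saline and KO ethanol versus KO saline, with filled points for calls at an adjusted p under 0.30. Calls are seen in the first 2 of these comparisons, which share the WT saline libraries, and none in KO ethanol versus KO saline.

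KO saline was compared with WT saline to ask how the absence of p53 alone changed the channel genes. In KO saline, 13 potassium channel genes were higher and 2 were lower than in WT saline. The 15 called were 19.2% of the 78 tested, against 25.8% of all symbols. Higher calls made up 16.7% of the members and 12.4% of all symbols, and lower calls 2.56% and 13.4%. The median log2 fold change was 0.30 over members and 0.04 over all symbols, and 55 of 78 members had a value above 0. None passed an adjusted p of 0.05 (0.0543% of all symbols did) and DESeq2 called 18 at 0.30, along with 29.7% of all symbols. Before adjustment, 13 members had p under 0.05, as did 19.6% of all symbols, 11 of them higher (9.14% of all symbols). Called or not, 15 of the 78 members lay wholly above WT saline in the KO saline libraries and 1 wholly below. Of all symbols, 12.9% and 10% did so. This comparison uses the same WT saline libraries as the one before, so the calls of both are not independent. Without WT saline replicate 1, KO saline replicate 8 or KO saline replicate 9, 0 members were called. Of all symbols, 0.237%, 0.0611% and 0.0543% were called in these fits, so the loss was not particular to the members. Without the libraries named with L, 35 members and 56.6% of all symbols were called.

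Among calcium- and sodium-activated channels, 3 of 7 were called higher and 1 lower in KO saline, against 12.4% and 13.4% of all symbols. Kcnn3 was at 9.37, 14.9 and 14.7 CPM in KO saline, above all WT saline libraries (log2 fold change 2.32, SE 0.49, adjusted p = 0.131, a fold of 4.99). Kcnma1, which encodes the BK pore and lies on chromosome 14 at 23298694 to 24004205, was at 34, 25.7 and 28.2 CPM in WT saline and 40.1, 64.9 and 56.4 CPM in KO saline (log2 fold change 0.87, SE 0.32, adjusted p = 0.185). Kcnt2, a sodium-activated channel, was at 18.7, 7.71 and 5.5 CPM against 31.9, 38.4 and 27.4 CPM (log2 fold change 1.61, SE 0.53, adjusted p = 0.176). In none of these did the groups overlap. With the length and GC trend removed, the log2 fold change of Kcnma1 turned to -0.14. Kcnu1 was lower, at 5.97, 11.4 and 3.68 CPM in KO saline (log2 fold change -1.51, SE 0.51, adjusted p = 0.177), also without overlap. Its highest KO saline library was near its lowest WT saline library.

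The largest fitted difference in KO saline was that of Kcng1, on chromosome 2 at 168261698 to 168269331. It was at 14.6, 18 and 35.8 CPM in KO saline against 0.367, 4.11 and 3.57 CPM in WT saline (log2 fold change 3.14, SE 0.73, adjusted p = 0.155, a fold of 8.79). All KO saline libraries lay above all WT saline libraries. Without WT saline replicate 1, the log2 fold change of Kcng1 was 2.57 (adjusted p = 0.33).

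Kcnq3 encodes 1 of the subunits of the channels behind the M current, which holds neurons back from repetitive firing. The gene, on chromosome 15 at 65994915 to 66286224, was at 8.64, 6.68 and 13.4 CPM in WT saline and 11.9, 30.1 and 25.3 CPM in KO saline (log2 fold change 1.20, SE 0.45, adjusted p = 0.191), with overlap at KO saline replicate 7. Without KO saline replicate 8 the log2 fold change was 0.93 (adjusted p = 0.40), and it was 0.10 (adjusted p = 0.92) with the length and GC trend removed.

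The Shaw gene Kcnc2, expressed in fast-firing neurons, was at 17.6, 29.3 and 13.6 CPM in WT saline and 34.2, 59.9 and 44.5 CPM in KO saline (log2 fold change 1.22, SE 0.40, adjusted p = 0.177). The groups did not overlap. Kcna3 had 16, 58 and 34 counts in KO saline against 0, 0 and 10 in WT saline, which is 1.18, 3.4 and 2.98 CPM (log2 fold change 2.70, SE 0.96, adjusted p = 0.182). Without KO saline replicate 8 the calls of Kcnc2 and Kcna3 were lost (adjusted p = 0.36 in each).

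Kcnj9, a G-protein-gated inward rectifier, was at 3.49, 32.9 and 10.3 CPM in WT saline and 102, 36.3 and 48.6 CPM in KO saline (log2 fold change 2.06, SE 0.70, adjusted p = 0.177). The groups were close at WT saline replicate 3 and KO saline replicate 8, and the log2 fold change was 1.49 (adjusted p = 0.35) without KO saline replicate 7. That library stood apart in other members as well. Kcnt1, a sodium-activated channel that was not called, was at 149 CPM in KO saline replicate 7 and at 150 and 185 CPM in KO ethanol replicates 10 and 18, against 9.19 to 103 CPM in the others. The same 3 libraries held 5689, 5781 and 7019 CPM of Meg3 and 856, 724 and 817 CPM of Malat1, nuclear noncoding RNAs chosen after their values were seen. Whether this bears on Kcnj9 was not tested.

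Of the remaining calls in KO saline, Kcnk9, an acid-sensitive leak channel, had a log2 fold change of 1.69 (SE 0.76, adjusted p = 0.241) at 1.1, 0 and 2.97 CPM in WT saline against 6.12, 4.68 and 5 CPM. Kcnk9 is named outside the rule for named genes, after its values were seen. Kcne2 was at 1.33, 0.586 and 7.46 CPM in KO saline (log2 fold change 2.28, SE 1.14, adjusted p = 0.279), and without replicate 9, its high library, the log2 fold change was 0.58 (adjusted p = 0.83). Kcne1l was lower, at 31.1, 12.9 and 40.3 CPM in WT saline and 11.4, 9.19 and 16.4 CPM in KO saline (log2 fold change -1.21, SE 0.44, adjusted p = 0.185). Kcne1l and Kcne2 overlapped between the groups.

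The summed CPM of marker genes moved between these groups as well. The 4 pan-neuronal markers spanned 4417 to 6016 CPM across WT saline, 2412 to 3461 CPM across WT ethanol and 3188 to 3345 CPM across KO saline, and 2651 to 6287 CPM for KO ethanol. In this sum both groups compared with WT saline lay below it, but among the 4 genes only Tubb3 did so without overlap. Tubb3 was at 2823 to 4693 CPM in WT saline, 1136 to 1537 CPM in WT ethanol and 1269 to 1415 CPM in KO saline. Snap25, Syt1 and Rbfox3 overlapped between WT saline and each of these groups. The 5 excitatory cortical neuron markers overlapped, with 1069 to 1585 CPM across WT saline, 867 to 1663 CPM across WT ethanol and 1395 to 1546 CPM across KO saline, with 1151 to 1390 CPM for KO ethanol. The 2 hippocampus and dentate markers summed to 10.8 to 22.3 CPM across WT saline and 25.1 to 109 CPM across WT ethanol, without overlap. Of the 2, Wfs1 did not overlap between these groups but Prox1 did. Prox1 was at 2.02, 0.514 and 1.78 CPM in WT saline and 68.7, 3.06 and 1.58 CPM in WT ethanol replicates 4, 5 and 14. The 5 striatum markers reached 350 and 737 CPM in WT ethanol replicates 5 and 14, against at most 120 CPM in WT saline. The 4 blood markers summed to 328 to 1282 CPM in WT saline libraries, 48.7 to 139 CPM with ethanol, and 35.6 to 93.3 CPM (saline) and 28.8 to 746 CPM (ethanol) in KO mice. The members tested were also longer than genes in general, with a median of 3604 bases against 2957 for all symbols with a length. With the length and GC trend removed, the median log2 fold change over members was -0.10 in WT ethanol and -0.12 in KO saline, against -0.19 and -0.18 over all symbols. In that fit 13 and 6 members were called, along with 13.2% and 8.28% of all symbols, and Kcnn3 was among them in both (log2 fold changes 2.71 and 2.11). The part of the marker lists in these results was not tested.

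KO ethanol was compared with KO saline to ask which channel genes changed after ethanol without p53. No potassium channel gene was called in edgeR, and none of the 14739 symbols did (0%). DESeq2 also called 0 members. Before adjustment, at p under 0.05, 4 members were lower and 0 were higher, which is 5.13% of those tested against 3.15% of all symbols, and 2.01% in the lower direction. These were Kcnma1 (log2 fold change -0.89, SE 0.32, unadjusted p = 0.0155), Kcnj3 (-0.98, SE 0.36, unadjusted p = 0.016), Kcng1 (-1.47, SE 0.67, unadjusted p = 0.0461) and Kcnq3 (-0.97, SE 0.45, unadjusted p = 0.0491), each with an adjusted p of 0.999. The median over members was -0.10 against 0.01 over all symbols.

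In this comparison Kcnma1 was at 40.1, 64.9 and 56.4 CPM in KO saline and 29.2, 28.4 and 29.2 CPM in KO ethanol, a range of the latter that lay wholly below the former. Kcnj3, the common subunit of G-protein-gated inward rectifiers, was at 50.7, 81.5 and 71.4 CPM in KO saline and 43.9, 25.1 and 32 CPM in KO ethanol, also without overlap. The KO ethanol libraries lay wholly below the KO saline libraries for 12 members and wholly above them for 0, against 6.87% and 3.89% of all symbols. Kcnn3 was at 11.3, 13.4 and 13.9 CPM in KO ethanol, inside the range of KO saline (log2 fold change -0.02, SE 0.45).

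KO ethanol was compared with WT ethanol to ask how the genotypes differed after ethanol. Again 0 members and 0% of all symbols were called, and DESeq2 also called 0 members. Before adjustment, 5 members had p under 0.05 (6.41%, against 3.24% of all symbols and 2.26% lower), each with an adjusted p of 0.982. Kcna3 (log2 fold change -2.33, SE 0.92, unadjusted p = 0.023), Kcnd3 (-1.10, SE 0.46), Kcns2 (-0.99, SE 0.43) and Kcnd2 (-1.02, SE 0.47) were lower in KO ethanol, and Kcns3 (1.49, SE 0.65) was higher. For Kcnd2 the WT ethanol libraries were at 176, 116 and 68.7 CPM and the KO ethanol libraries at 62.9, 51.8 and 61.8 CPM, without overlap, but the WT saline libraries at 184, 58.6 and 119 CPM spread as widely. The KO ethanol libraries lay wholly below the WT ethanol libraries for 7 members and wholly above for 3, against 8.69% and 4.04% of all symbols. The WT ethanol and KO ethanol libraries also enter the comparisons with saline.

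**Figure D3:**
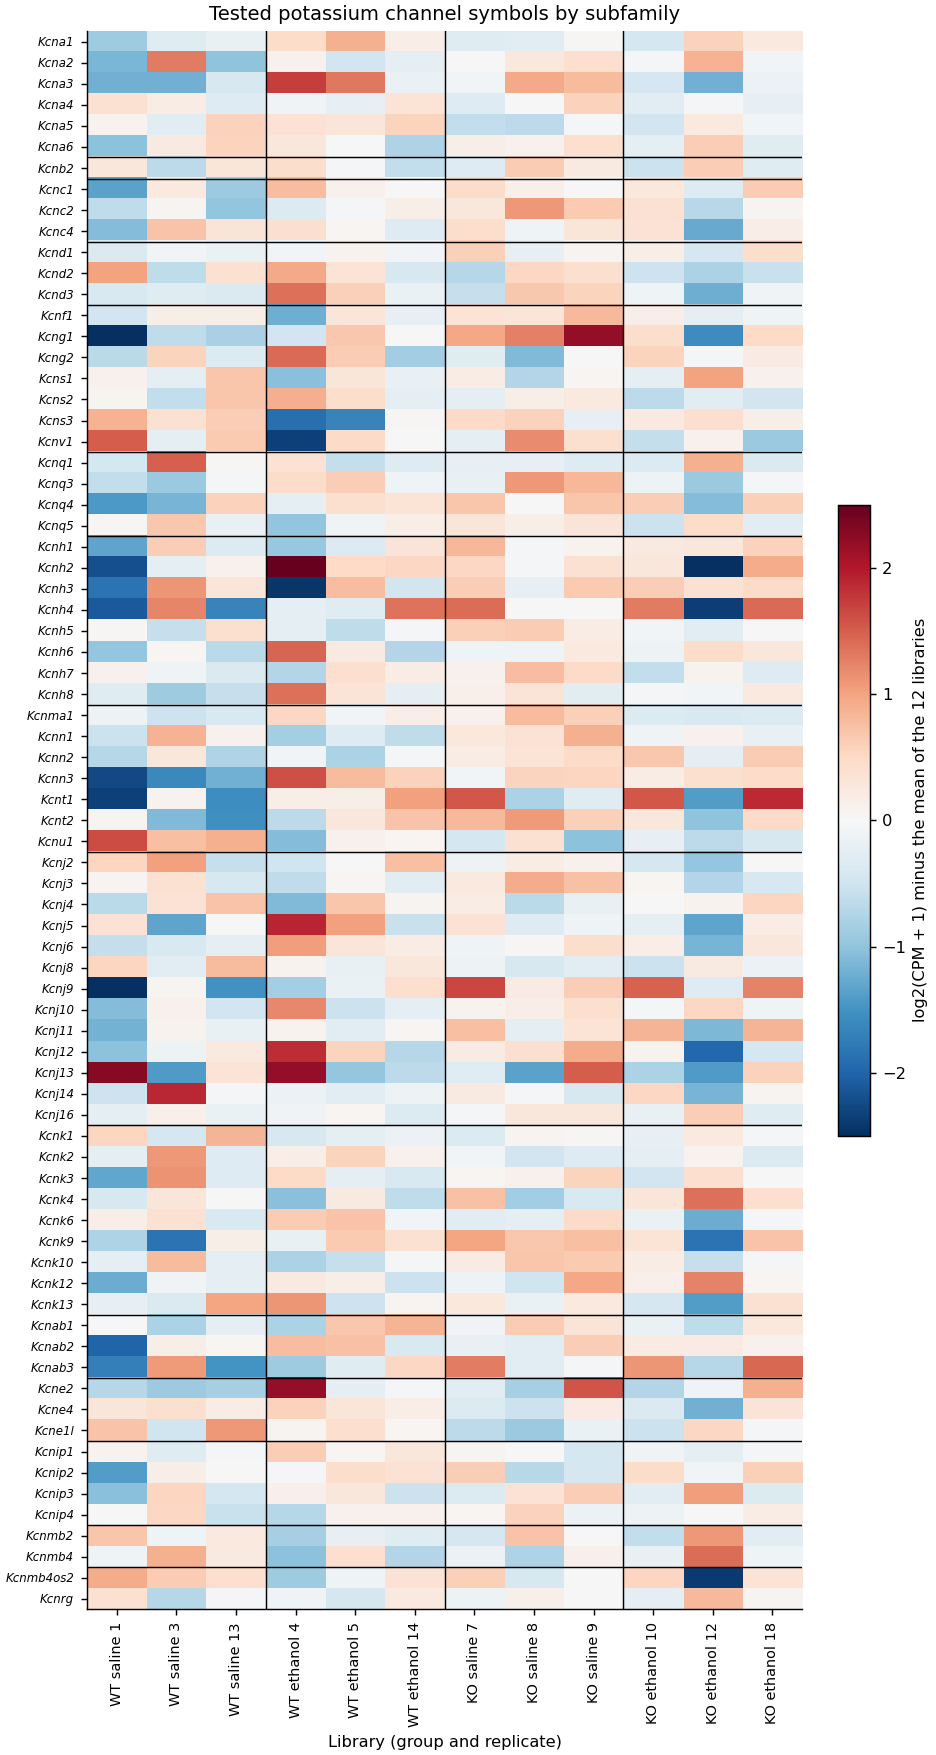
Log2(CPM + 1) minus the mean of each row for 75 of the 78 potassium channel genes tested (rows) in the 12 libraries (columns, by group). No block of genes separates all 4 groups, and single libraries, among them WT saline replicate 1 and KO ethanol replicate 12, differ from the others of their group.

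The difference between the ethanol effects of the genotypes was tested as an interaction, the log2 ethanol effect of KO mice less that of WT mice. It was called for 6 potassium channel genes, all below 0, which is 7.69% of the members against 11.1% of all symbols called, 5.64% above 0 and 5.43% below 0. The median over members was -0.30 and over all symbols -0.11. Before adjustment, 9 members had p under 0.05, all below 0, which is 11.5% against 15.2% of all symbols (7.50% above 0 and 7.67% below 0). The interaction uses all 4 groups, so it shares every library with the comparisons above. Without WT saline replicate 1, WT ethanol replicate 4, KO saline replicate 8 or KO saline replicate 9, 0 members were called. Of all symbols, 0.136%, 0%, 0% and 0% were called in these fits, so the loss was not particular to the members. Without the libraries named with L, 22 members and 29.4% of all symbols were called.

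Kcnn3 had the smallest p of these, with an interaction of -3.09 (SE 0.66, adjusted p = 0.210). Its mean was 2.52 ± 1.21 CPM with saline and 21.8 ± 9.25 CPM with ethanol in WT mice, and 13.0 ± 3.13 and 12.9 ± 1.38 CPM in KO mice (SD, n = 3), so WT saline was the group that stood apart. Kcna3 had an interaction of -5.03 (SE 1.33, adjusted p = 0.250). It was at 0.711, 0 and 1.08 CPM in KO ethanol, where the 0 of replicate 12 allows up to 5.02 CPM and thus says little. Without KO ethanol replicate 12 the interaction of Kcna3 was -4.90 (adjusted p = 0.44).

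Kcng1 had an interaction of -3.06 (SE 0.98, adjusted p = 0.250) and was at 9.79, 1.67 and 10.2 CPM in KO ethanol. The value in KO ethanol replicate 12 rests on 1 count. Kcnma1 had an interaction of -1.46 (SE 0.46, adjusted p = 0.250), with 53.4, 35.5 and 41.8 CPM in WT ethanol, above WT saline, while KO ethanol lay below KO saline. Kcnq3 had an interaction of -1.84 (SE 0.64, adjusted p = 0.252), at 19.1, 21.6 and 12.6 CPM in WT ethanol and 12.4, 6.69 and 13.3 CPM in KO ethanol. Kcnd3, on chromosome 3 at 105452330 to 105674002, had an interaction of -1.78 (SE 0.64, adjusted p = 0.260), at 26.6, 64.7 and 59 CPM in KO saline and 37, 16.7 and 37.4 CPM in KO ethanol. For Kcnq3 and Kcnd3 the KO saline and KO ethanol libraries overlapped, since KO saline replicate 7 was low. With the length and GC trend removed, 1 member was called (Kcnn3, -2.83), against 0.165% of all symbols. In that fit the interaction was -5.41 for Kcna3 (adjusted p = 0.34), -3.29 for Kcng1 (adjusted p = 0.35), -0.49 for Kcnd3 (adjusted p = 0.73), -0.35 for Kcnq3 (adjusted p = 0.86) and 0.12 for Kcnma1 (adjusted p = 0.95).

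**Figure D4:**
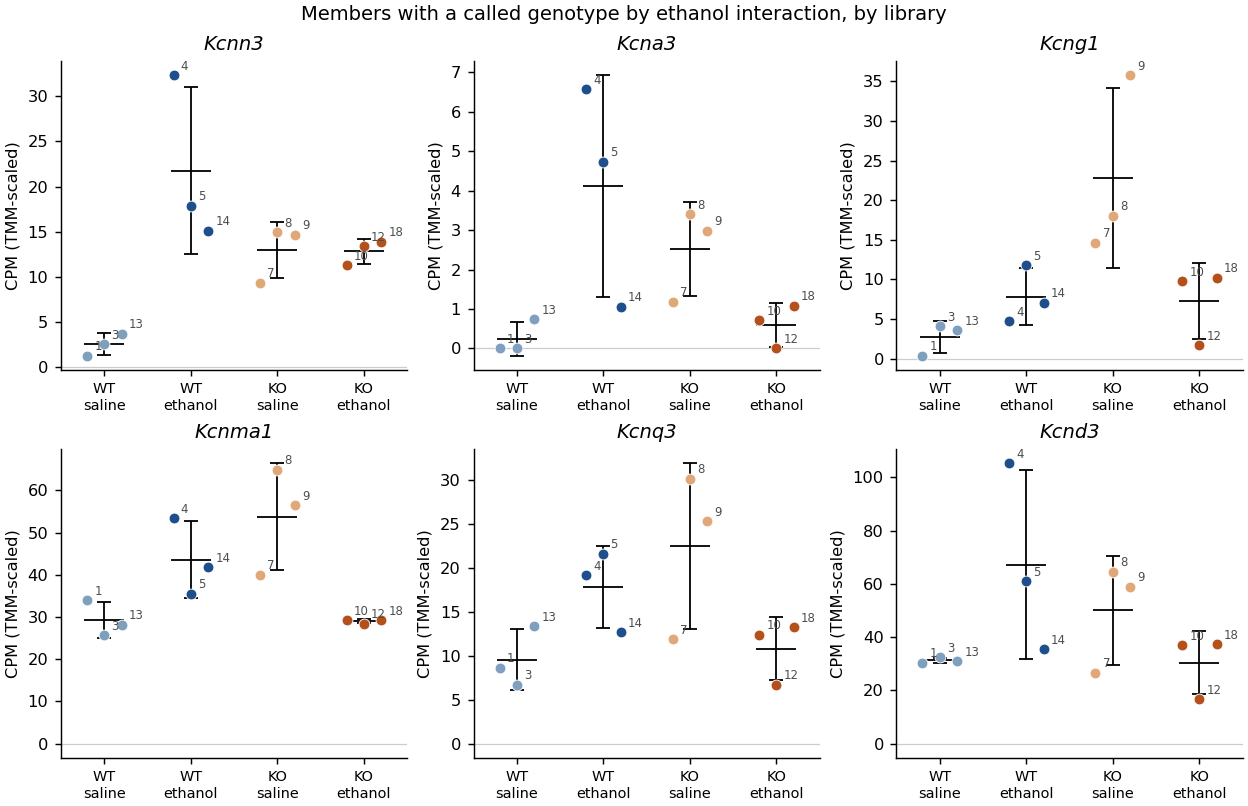
CPM of Kcnn3, Kcna3, Kcng1, Kcnma1, Kcnq3 and Kcnd3 in the 4 groups, with 1 point per library and the mean ± SD of 3 libraries. Kcnn3 is at 1.29 to 3.71 CPM in WT saline and at 9.37 CPM or more in every other library.

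Several abundant groups of members held no call in any comparison of the main fit. None of the 4 Kcnip, 3 Kcnab or 2 Kcnmb genes tested was called, although they include 5 of the 10 highest members by RPKM. Of all symbols, 22.5% were called in WT ethanol and 25.8% in KO saline, each against WT saline. The lack of calls depended on the fit. In WT ethanol, Kcnab1 and Kcnip1 were called without TMM factors (27.5% of all symbols). Kcnip2 was among those called there without the libraries named with L (55.6% of all symbols). Kcnj10, the inward rectifier of astrocytes, was at 25.5, 59.6 and 39.4 CPM in WT saline and 130, 37.8 and 47.6 CPM in WT ethanol. The KO libraries held 59.2, 62.4 and 74 CPM with saline and 54.4, 80.2 and 51.3 CPM with ethanol. WT ethanol replicate 4 was again the high library, and the groups overlapped in WT mice.

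Other genes that work with these channels were read from a fixed list of 17, which holds Dpp partners of Kcnd channels, Amigo1, the sulfonylurea receptors, LRRC subunits, proteins that anchor Shaker channels and the hyperpolarization-activated Hcn channels, and of which 14 were tested. In WT ethanol, 2 of the 14 were called higher and 0 lower, against 12.1% and 10.4% of all symbols. Dpp6, a partner of Kcnd channels, was at 50.3, 118 and 112 CPM in WT saline and 231, 123 and 171 CPM in WT ethanol (log2 fold change 0.91, SE 0.37, adjusted p = 0.232). Hcn4, a pacemaker channel, had a log2 fold change of 3.16 (SE 0.80, adjusted p = 0.148) there. It was 3.21 (SE 0.80, adjusted p = 0.160) in KO saline, with an interaction of -3.99 (SE 1.07, adjusted p = 0.250). Hcn4 was at 0.551, 0 and 1.78 CPM in WT saline and 15.7, 6.49 and 4.92 CPM in WT ethanol. In KO mice it was at 8.70, 8.43 and 11.1 CPM with saline and 5.53, 0 and 7.55 CPM with ethanol. All of these Hcn4 effects thus rest on a low WT saline group, and the 0 in KO ethanol is from replicate 12, the shallowest library. No partner was called in KO ethanol against KO saline or against WT ethanol.

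The counts were deposited per RefSeq transcript, and 30 of the 86 members had at least 2 transcripts. In 7 of them (Kcnab1, Kcne3, Kcnh2, Kcnip4, Kcnj3, Kcnj6 and Kcnk10) the share of the count given to a transcript differed by at least 30 points between group means. Kcnj6 passed this mark through 1 count in KO ethanol replicate 12, and Kcne3 through 2 counts in KO saline replicate 9. For Kcnab1, NM_010597 took 23.6%, 0.1% and 58.6% in WT saline and 88.6%, 71.5% and 51.0% in WT ethanol. In KO mice it took 79.0%, 60.6% and 85.3% with saline and 68.2%, 37.7% and 59.8% with ethanol. For Kcnj3, NM_008426 took 28.0%, 11.1% and 61.0% in WT saline and 87.5%, 57.4% and 63.9% in WT ethanol. The groups overlapped for both. In both libraries named with L, the share of NM_008426 was 11.1%, and for Kcns3 the count was divided as 74.3% and 25.7% in 11 of the 12 libraries. Reads shared by transcripts were divided by the quantification, and no test was run on these shares.

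**Figure D5:**
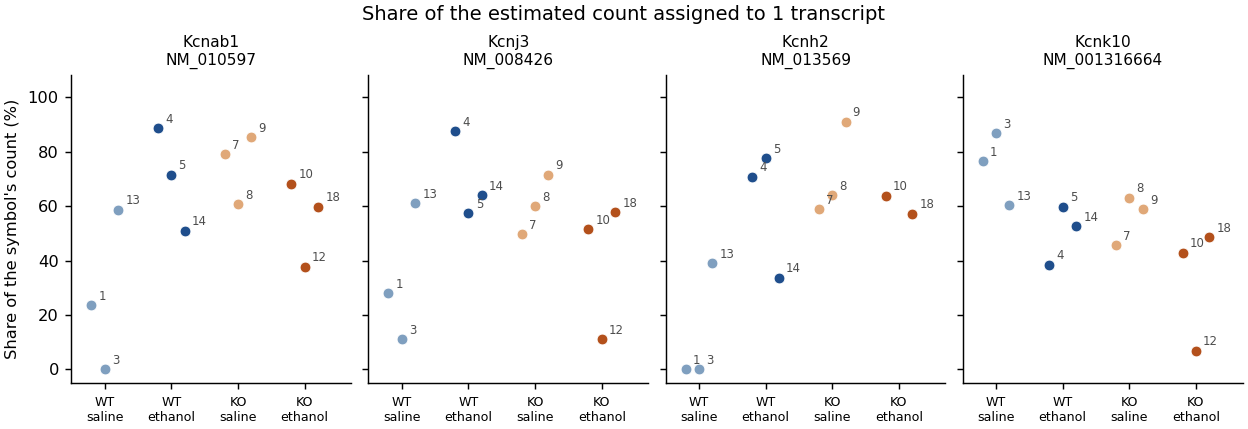
Share of the gene's count given to 1 RefSeq transcript of Kcnab1, Kcnj3, Kcnh2 and Kcnk10 in percent, with 1 point per library by group. WT saline libraries of Kcnab1 spread from 0.1% to 58.6%.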

How the data were processed

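Total RNA of P7 somatosensory cortex was sequenced in 12 stranded libraries, which the labels describe as mRNA. Tissue was taken by laser microdissection for some samples and by hole punch for others, and the method of each library is not given in the sources used here. The authors filtered reads by quality, aligned them to mm10 with Bowtie2 in TopHat and deposited estimated counts per RefSeq transcript from Partek Flow, whose version is not given in the sources used here. The deposited RPKM values, which the authors made in the same way, have nearly the same sorted values in all libraries and were used only for levels and for limma. Columns of per-sample values left unused numbered 0.

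Estimated counts were summed per symbol and rounded. Groups came from the labels. All 12 libraries were fitted in edgeR 4.0.16 (R 4.3.3) with filterByExpr, TMM factors and a quasi-likelihood model of 1 mean per group, and two-sided p-values were adjusted by Benjamini-Hochberg over 14739 symbols in each of 5 contrasts. Called means an adjusted p under 0.30. SEs were derived from the F statistic. Total counts ranged from 719735 to 17066392, so low members are imprecise in the shallowest library. Floors of 3 counts cover counting error only.

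The members and gene lists were chosen with earlier results of these data known. Genes were named if they were among the 10 highest by RPKM, among the 10 called with the smallest p per direction in a contrast (3 smallest p where none was called), in a textbook set, or divided among transcripts with a difference of at least 30 points. Genes named beyond this rule are marked. A few genes that the rule names are counted but not reported here by name. Alternatives were DESeq2 1.42.0, no TMM factors, other count filters, single transcripts, limma 3.58.1 on RPKM, only the groups compared, removal of a length and GC trend (splines with 5 degrees of freedom) and leaving out libraries. On simulated data with 200 of 14739 symbols changed 8-fold in WT ethanol versus WT saline, edgeR found 89% with 5 false calls. This was scored at the stricter adjusted p of 0.05, so it gives no count of false calls at the level that defines called. Smaller changes, changed genes with few counts and outlying libraries were not tested in it. Summaries used Python 3.11.15, numpy 2.4.6, pandas 2.3.3 and matplotlib 3.10.9.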

Additional observations from a re-analysis of the deposited data

Results flagged for a closer look

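The effect of ethanol differed between the genotypes for 6 potassium channel genes by the interaction test, which is 7.69% of the 78 tested against 11.1% of all symbols. The difference, KO minus WT on the log2 scale, was -5.03 for Kcna3, -1.78 for Kcnd3, -3.06 for Kcng1, -1.46 for Kcnma1, -3.09 for Kcnn3 and -1.84 for Kcnq3. In WT mice the log2 ethanol effects of Kcnn3, Kcna3, Kcng1 and Kcnd3 were called, at 3.07, 3.43, 1.59 and 1.11, while in KO mice no member was called. In each of the 6 genes the WT saline mean was below the WT ethanol and KO saline means. The genes were picked by an interaction of these same libraries, so this is no separate result. The KO ethanol mean was 29.0 CPM for Kcnma1 and 30.4 CPM for Kcnd3, against 29.3 and 31.3 CPM in WT saline. In the other genes the KO ethanol mean was above the WT saline mean. Groups of 3 libraries are too small for a test of single outlying values.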

How the results depend on the processing

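No paired analysis was possible because the groups share no replicate number. The counts of called members depended on the libraries and the unit, and the share of all features called (in parentheses) moved too. In WT ethanol versus WT saline 17 members were called (22.5%). The count was 11 (27.4%) with at least 10 counts in every library, where 37 members were tested, 26 (21.5%) with each RefSeq transcript tested, 4 (2.42%) and 2 (1.26%) with limma on log2(RPKM + 1) and log2(RPKM + 0.1), 40 (55.6%) without the libraries named with L, 33 (48%) without these and WT ethanol replicate 4 (chosen after seeing the data), 1 (0.251%) with only the groups compared, and 1 to 34 when a library was left out. In KO saline versus WT saline 15 were called (25.8%). The count was 26 (27.5%) without TMM factors, 24 (23.8%) by transcript, 3 (2.84%) and 1 (1.74%) with limma, 35 (56.6%) without the libraries named with L, 44 (59.3%) without these and WT ethanol replicate 4, 6 (8.28%) with the length and GC trend removed, and 0 to 34 when a library was left out. For the interaction 6 were called (11.1%). The count was 11 (18.2%) with DESeq2, 12 (13.6%) without TMM factors, 10 (12.1%) by transcript, 0 (0.109%) and 0 (0.0339%) with limma, 22 (29.4%) without the libraries named with L, 16 (24.1%) without these and WT ethanol replicate 4, 1 (0.165%) with the trend removed, and 0 to 21 when a library was left out. The highest of these ranges, 34, 34 and 21, came without WT saline replicate 3, where 49.1%, 50.9% and 34.4% of all symbols were called. With a library left out, the lowest shares of all symbols called were 0.488%, 0.0543% and 0%. In the other contrasts 0 members were called under every alternative run. The cause of these changes was not tested.

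With the trend removed, 3 values changed sign: Kcnc1 in WT ethanol (-0.020), Kcnma1 in KO saline (-0.14) and the Kcnma1 interaction (0.12). Over the 37 called values of named genes, 521 alternative values kept direction and call, 297 kept direction but lost the call, and 3 changed sign. The adjusted p of Kcna3 in the interaction was NA in DESeq2, and the fit of only the groups compared does not apply to the interaction. Depth limits what KO ethanol replicate 12 shows, since 3 counts there are 5.02 CPM.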
